A study of Mus musculus with 8 samples.

Results

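Lamins, inner nuclear membrane proteins and HMGB proteins were followed in primary skin fibroblasts of mice with and without a variant of the mitochondrial Nd2 gene. The 10 genes were Lmna, Lmnb1, Lmnb2, Lbr, Tmpo, Emd, Banf1, Hmgb1, Hmgb2 and Hmgb3, chosen by name from 18138 different gene symbols on the array, and every probe with one of these symbols was taken. The array held 21 such probes, of which 18 (for 8 genes) were measured well enough to be tested. Nd2-mutant mice were of the conplastic strain C57BL/6J-mtALR/LtJ, and the controls were C57BL/6J-mtAKR/J. Both strains carry the C57BL/6J nuclear genome and differ in the origin of their mitochondrial DNA. The mutant strain has a leucine-to-methionine exchange in mt-Nd2, the gene of a complex I subunit, in every cell. Fibroblasts were isolated by enzymatic dissociation of the skin of mice aged 12 months and grown in DMEM with fetal calf serum, antibiotics and no further treatment. Each strain gave 4 mice, with 2 males (mice 28 and 32, mutant; mice 16 and 17, control) and 2 females (mice 34 and 35, mutant; mice 15 and 37, control), and 1 Illumina MouseRef-8 v2.0 array per mouse. The comparison asks whether mRNAs of the nuclear envelope, several of which change in senescent cells, differed between fibroblasts of the 2 strains.

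The nuclear lamina is a meshwork of A-type lamins (lamin A and lamin C, both from Lmna) and B-type lamins (Lmnb1, Lmnb2) under the inner nuclear membrane. Lamin B receptor, emerin and the membrane-bound LAP2 proteins, made from Tmpo, anchor the lamina and peripheral chromatin to that membrane. The small DNA-binding protein BAF (Banf1) links chromatin to emerin and LAP2. HMGB1, HMGB2 and HMGB3 are chromatin proteins that bend DNA. Loss of lamin B1 is a widely used marker of cellular senescence, HMGB2 is known to fall when cells stop dividing, and HMGB1 leaves the nucleus of senescent cells. The accumulation of a truncated lamin A, progerin, causes a premature aging syndrome in which the nucleus is misshapen.

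The table held 25697 probes, and a probe was tested if its detection p-value was under 0.01 on all 4 arrays of a strain. Between 10973 and 11350 probes were detected on the mutant arrays and between 10663 and 10837 on the control arrays. The array of control mouse 15 stood apart, since its correlation with the others averaged 0.934, against 0.963 to 0.974 for the rest. Of 10414 tested probes, 0 passed an adjusted p of 0.05 for the strain difference (0% called), and 725 of 8003 genes passed before adjustment. Of 11 fibroblast markers on the array, 11 were detected, with a summed intensity of 43498 to 49058 in mutant mice and 37969 to 53177 in controls. Markers of other cell types gave a mixed picture. The keratinocyte genes Krt14 and Krt10, the endothelial genes Emcn and Pecam1, the macrophage-expressed genes Csf1r, Laptm5 and Fcer1g, the smooth muscle and pericyte genes Myh11 and Mcam and the muscle gene Acta1 were detected on all 8 arrays, with Krt14 at 38.3 to 1007 and Laptm5 at 110.5 to 673. Of the other defining markers of these types, Krt1, Kdr, Ptprc, Rgs5 and Pax7 were detected on 0 of 8 arrays, as were Dct and Tyr of melanocytes and Fabp4 of adipocytes. In bulk samples, fewer cells of a type and less RNA per cell cannot be told apart. The number of arrays limits the precision, and p-values measure the spread between mice, each of which was represented by 1 culture as far as the labels tell.

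Promoter sequences are given for Emd and Tmpo, the pair of members whose levels followed each other most closely from mouse to mouse, and for Hmgb2, whose transcription is known to follow the cell cycle. They were read 5′ to 3′ on the strand of the gene from RefSeq (GRCm38.p6), from 250 bases before to 50 after an annotated start, and the capitals mark matches on either strand to CCAAT, the CCAAT box, and to TTTGAA, the core of a cell cycle homology region.
Emd, chrX:74254437-74254736, plus strand: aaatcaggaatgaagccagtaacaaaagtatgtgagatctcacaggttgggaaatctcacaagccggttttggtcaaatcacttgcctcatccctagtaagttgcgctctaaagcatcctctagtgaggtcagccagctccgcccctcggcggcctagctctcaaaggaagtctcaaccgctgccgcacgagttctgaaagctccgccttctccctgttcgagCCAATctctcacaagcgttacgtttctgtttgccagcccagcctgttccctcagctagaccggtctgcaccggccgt
Tmpo, chr10:91171570-91171869, minus strand: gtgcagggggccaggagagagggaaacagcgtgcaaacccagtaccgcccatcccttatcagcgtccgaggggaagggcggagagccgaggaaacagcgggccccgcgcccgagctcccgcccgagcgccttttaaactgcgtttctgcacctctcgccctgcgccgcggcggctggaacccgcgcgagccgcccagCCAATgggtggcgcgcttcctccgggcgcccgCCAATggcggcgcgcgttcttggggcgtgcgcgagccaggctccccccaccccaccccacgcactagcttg
Hmgb2, chr8:57511593-57511892, plus strand: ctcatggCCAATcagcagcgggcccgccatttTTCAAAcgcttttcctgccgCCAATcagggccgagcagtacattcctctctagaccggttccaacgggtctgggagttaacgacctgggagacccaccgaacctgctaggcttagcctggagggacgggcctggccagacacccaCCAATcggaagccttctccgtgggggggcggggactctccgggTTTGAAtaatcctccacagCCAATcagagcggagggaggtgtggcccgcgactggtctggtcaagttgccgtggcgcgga
The Emd window held 1 CCAAT match, at position -27 from the start, and 1 GC box (GGGCGG on either strand, not in capitals). The Tmpo window held 2 CCAAT matches, at positions -53 and -21, and 4 GC boxes. A further annotated start of Tmpo, not printed, had a window with 0 CCAAT matches, 0 GC boxes and 1 TTTGAA match. The Hmgb2 window held 4 CCAAT matches, 1 GC box and 2 TTTGAA matches, the nearer of which began at position -30. Of 32851 promoter windows of the same length, 37.4% held a CCAAT match, 17.9% a TTTGAA match and 35.7% a GC box. These matches are descriptions of the sequence and were not tested for function.

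Over all members, no probe passed the test of the strain difference after adjustment. Of the 18 tested probes, 11 lay higher and 7 lower in the mutant strain, and 13 differed by less than 0.2 on the log2 scale. Among all 10414 tested probes 50.2% lay higher, and the steps of 0.1 from -0.2 to 0.2 held 1451, 1713, 1624 and 1317 probes. The median log2 difference of the member probes was 0.01, beside 0.00 over all tested probes. After adjustment over all tested probes 0 member probes passed (limma, smallest adjusted p = 0.639). Before adjustment 2 member probes passed the threshold of limma, both higher in the mutant (1 for Emd, 1 for Tmpo) and none lower, where 4.50% of all tested probes passed as higher and 3.13% as lower. The Emd probe entered the test through the mutant arrays, where it is high, and among probes detected on all 8 arrays the count was 1. The methods' t-test gave 0 member probes at the same threshold before adjustment, on the log2 and on the linear scale. On linear intensities limma gave 1, Lmna ILMN_1255510, which was lower in the mutant and did not pass adjustment. In 0 member probes did the 4 mutant and 4 control values stand clear of each other, beside 4.37% of all tested probes. The exact permutation test of 4 against 4 mice cannot give a p below 0.0286.

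**Figure D1:**
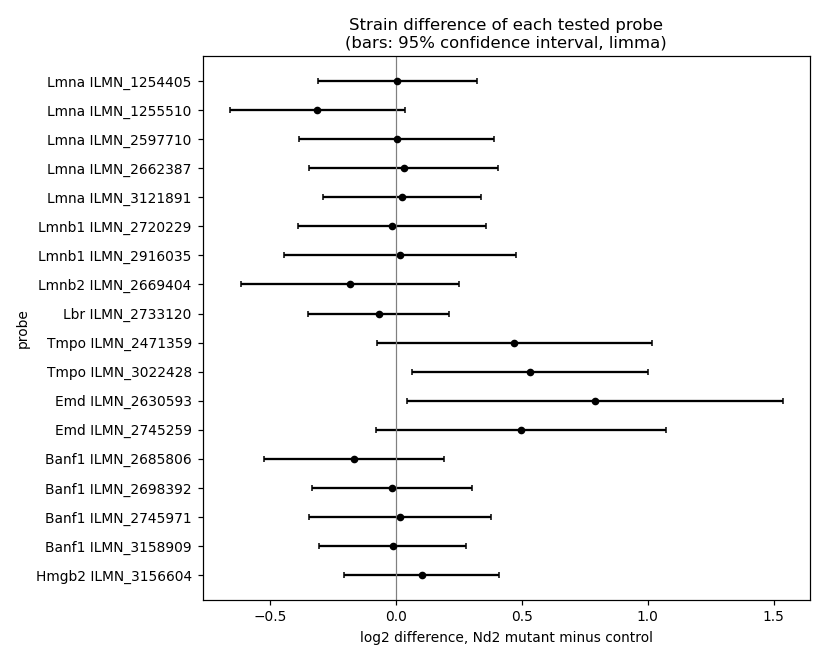
Log2 difference between Nd2-mutant and control fibroblasts (horizontal axis, mutant minus control) for each of the 18 tested probes (vertical axis), with the 95% confidence interval of the limma fit as bars. Points lie between -0.31 (Lmna ILMN_1255510) and 0.79 (Emd ILMN_2630593), and the intervals of 2 probes, 1 for Emd and 1 for Tmpo, lie above 0 before adjustment.

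A-type lamins were measured by 5 probes of Lmna, and 4 of them lay almost level between the strains. Transcript variant 2 was the annotation of the level probes ILMN_2662387, ILMN_1254405 and ILMN_2597710 and also of the exception, ILMN_1255510. Its intensity was 3665, 3613, 3777 and 3286 in mutant mice 28, 32, 34 and 35, and 5101, 5057, 3454 and 4403 in control mice 15, 16, 17 and 37. Of the controls, 3 lay above every mutant and control 17 lay inside the mutant range, so the groups overlapped. The means were 3585 ± 211 and 4504 ± 769 (SD, n = 4 each). The log2 difference was -0.31 (SE 0.156, 95% interval -0.66 to 0.03), which did not pass the test (limma, adjusted p = 0.639; exact permutation p = 0.114).

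The other Lmna probes did not share this pattern. ILMN_3121891, annotated to transcript variant 1, gave 1663, 1661, 1740 and 1615 in mutants and 1576, 1916, 1369 and 1763 in controls, a log2 difference of 0.02 (SE 0.142). ILMN_2662387 gave a log2 difference of 0.03 (SE 0.169), with control 37, at 1950, above every other mouse. In both probes the controls reached further up and further down than the mutants. ILMN_1254405 (0.01, SE 0.142) and ILMN_2597710 (0.00, SE 0.175) were likewise near 0. Across mice, pairs of Lmna probes correlated between r = -0.12 and r = 0.63, and whether the 5 probes reported 1 common level was not tested. Which part of each transcript the probes bind was not analysed here, and the Lmna probes were therefore kept apart.

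B-type lamins showed no difference that the arrays could resolve. The brighter Lmnb1 probe, ILMN_2916035, gave 385, 327, 338 and 436 in mutants 28, 32, 34 and 35, and 409, 342, 248 and 508 in controls 15, 16, 17 and 37. The lowest and the highest value of all mice were both controls, and the mutants lay between them. Its log2 difference was 0.02 (SE 0.208, 95% interval -0.45 to 0.48; adjusted p = 0.985). A higher or lower Lmnb1 level of up to about the ends of this interval cannot be told from no difference with these mice. The dimmer Lmnb1 probe, ILMN_2720229, was detected on 7 arrays and gave a difference of -0.02 (SE 0.169). The levels of the 2 Lmnb1 probes showed no detectable relation across mice (r = -0.03, exact permutation p adjusted over 19 pairs of probes of the same gene = 0.946).

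Lmnb2 was measured by 1 probe, at 65.1, 79.2, 91.4 and 97.2 in mutants and 143, 78.8, 79.5 and 91.8 in controls. Control 15 lay above all other mice, and the rest of the controls lay inside the mutant range. The log2 difference was -0.18 (SE 0.195; adjusted p = 0.785; exact permutation p = 0.486), and without control 15 it was -0.01. Lmnb2 was also the member with a difference between the sexes before adjustment. Its mean log2 level was 6.51 in males and 6.91 in females, a log2 difference of -0.40 (SE 0.158), which was lost on adjustment (limma, adjusted p = 0.578). It was 1 of 18 member probes at this threshold, beside 8.31% of all tested probes.

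**Figure D2:**
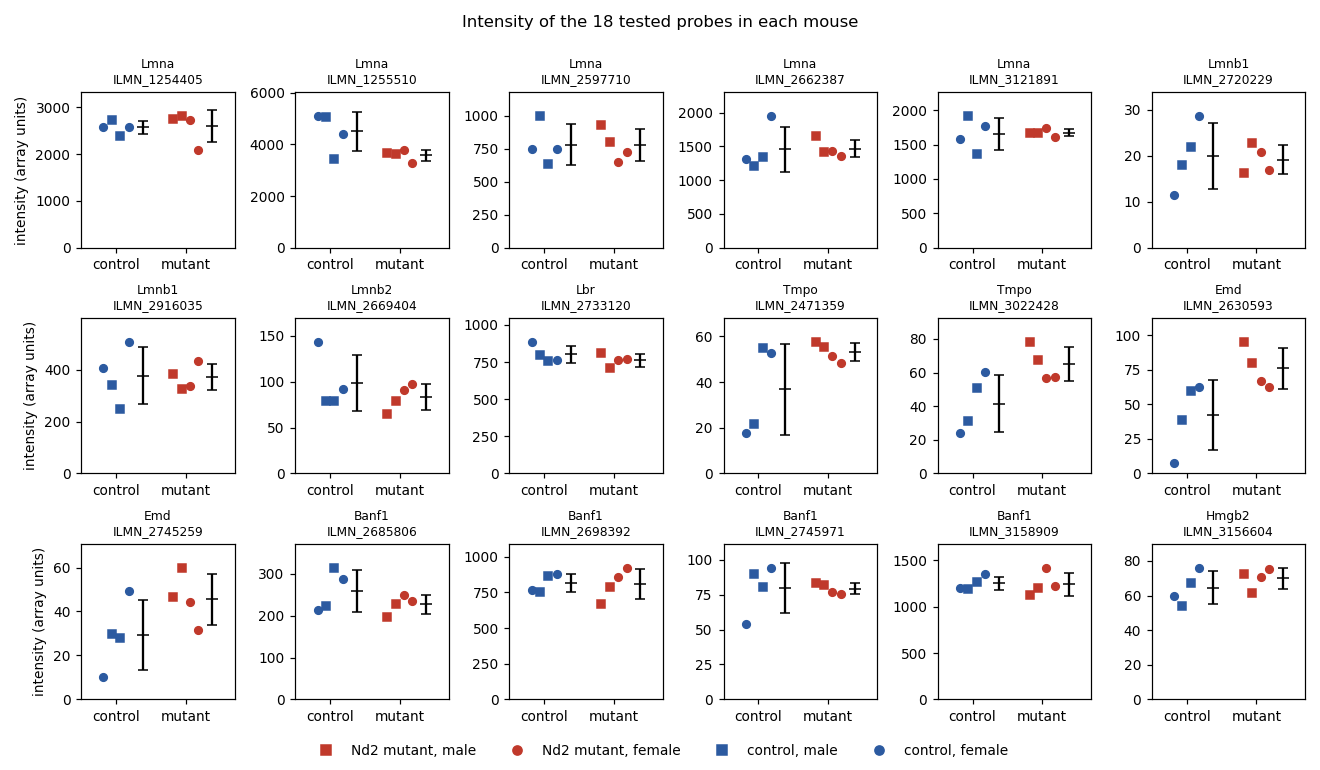
Deposited intensity (vertical axes, array units, each from 0) of the 18 tested probes in each control (blue) and Nd2-mutant (red) mouse, males as squares and females as circles, with the mean and SD (n = 4) in black. Control and mutant values overlap in every panel, and the low Emd and Tmpo values belong to control mice.

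Among proteins of the inner nuclear membrane, Emd and Tmpo were the members with the highest mutant-to-control differences, and Lbr was level. The brighter Emd probe, ILMN_2630593, gave 95.1, 79.7, 66.7 and 62.3 in mutants 28, 32, 34 and 35, and 7.75, 38.5, 59.8 and 62.8 in controls 15, 16, 17 and 37. Both Emd probes were detected on 7 arrays, all but that of control 15, and so passed the detection filter through the mutant arrays alone. Control 37 overlapped the mutant range by less than 1 intensity unit. The log2 difference was 0.79 (SE 0.337, 95% interval 0.04 to 1.54), at percentile 99.0 of all tested probes, but it failed the adjusted test (limma, adjusted p = 0.639; exact permutation p = 0.0571). Without control 15 it was 0.41. The other Emd probe, ILMN_2745259, gave 46.6, 59.9, 44.3 and 31.4 in mutants and 9.99, 29.9, 28.1 and 49.1 in controls. Here too the lowest values were controls, with a log2 difference of 0.50 (SE 0.260; adjusted p = 0.639), or 0.26 without control 15.

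Tmpo, which encodes the LAP2 isoforms, was likewise low in part of the controls. ILMN_3022428, annotated to transcript variant 3, gave 78.2, 67.2, 56.8 and 57.6 in mutants and 24.0, 31.0, 51.0 and 60.1 in controls. ILMN_2471359, annotated to transcript variant 6, gave 57.6, 55.2, 51.5 and 48.5 in mutants and 17.7, 21.7, 55.1 and 52.9 in controls. In both probes controls 15 and 16 lay below every mutant, while control 37 lay within the mutant range. Control 17 lay below every mutant in ILMN_3022428 but within the mutant range in ILMN_2471359. The log2 differences were 0.53 (SE 0.212; adjusted p = 0.639; exact permutation p = 0.0857) and 0.47 (SE 0.247; adjusted p = 0.639; exact permutation p = 0.257). Without control 15 they were 0.37 and 0.28. The remaining Tmpo probe, ILMN_3094743, was detected on 3 arrays and was not tested.

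Lbr, the sterol reductase and chromatin anchor of the inner membrane, varied least of all members. It gave 813, 707, 765 and 769 in mutants and 886, 801, 756 and 766 in controls, a log2 difference of -0.07 (SE 0.126; adjusted p = 0.875). The SD within strains was 0.0918 on the log2 scale, at percentile 1.75 of all tested probes. Emd lay at the other end, with an SD of 0.590 for its brighter probe. The median of the members was 0.220, beside 0.260 over all tested probes.

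**Figure D3:**
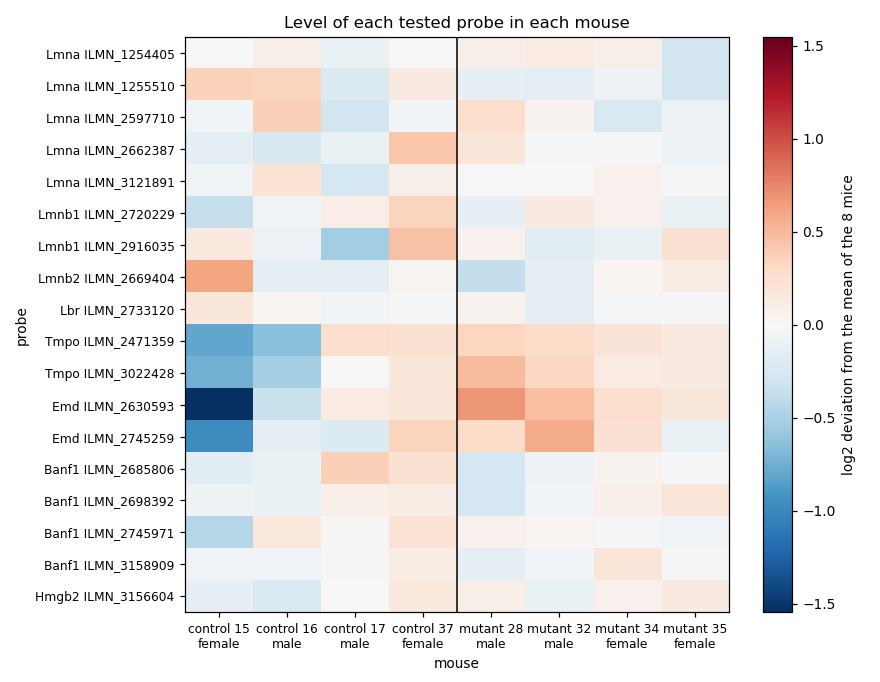
Log2 deviation of each tested probe (rows) from its mean over the 8 mice (columns, controls left of the line and mutants right of it; red above and blue below the mean). The darkest blue cells are Emd and Tmpo in control mouse 15, whose Emd intensity of 7.75 was the lowest of that probe.

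Emd and Tmpo varied together from mouse to mouse. Over the 8 mice the brighter probes of the 2 genes correlated with Pearson's r = 0.940 (exact permutation p = 0.000124, adjusted over 28 pairs of members p = 0.00347) and Spearman's rho = 0.929 (exact permutation p = 0.00223, adjusted p = 0.0625). After the mean of each strain was subtracted, r was 0.904 (adjusted exact permutation p = 0.0229). Without controls 15 and 16, the mice farthest from the median, r was 0.956 over the other mice (exact permutation p = 0.00694, adjusted p = 0.194). It was the 1 pair of 28 that passed adjustment of Pearson's r. The Emd probe passed the detection filter through the mutant arrays alone and was not detected in control 15, the array that stood apart from the rest. The 2 Tmpo probes also correlated (r = 0.953, exact permutation p adjusted over 19 pairs = 0.0372, rho = 0.833), but without controls 15 and 16 r was 0.563. Control 15, the mouse with the lowest Emd and Tmpo, had the highest mean log2 level of smooth muscle and pericyte markers, 7.31. Control 16, also low in Tmpo and Emd, was at 6.50. Control 37, whose Emd and Tmpo lay inside the mutant range, was level with it at 6.49. Control 17 was at 6.04 and the mutants at 5.74 to 5.90. Of 7 such markers 5 were tested, all with lower means in mutants. Before adjustment 4 of the 5 passed (Mcam, log2 difference -1.06, Myh11, -1.06, Cspg4, -0.54, and Notch3, -0.45), beside 3.13% of all tested probes, and 0 passed adjustment. Their summed intensity was 220 to 279 in mutants and 286 to 959 in controls, with Cnn1 and Rgs5 detected on 0 arrays. Control 15 was also highest in the mean log2 level of the 4 tested endothelial markers (6.76) and the 2 tested Schwann markers (8.80). The part of these markers in the Emd and Tmpo values was not tested.

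**Figure D4:**
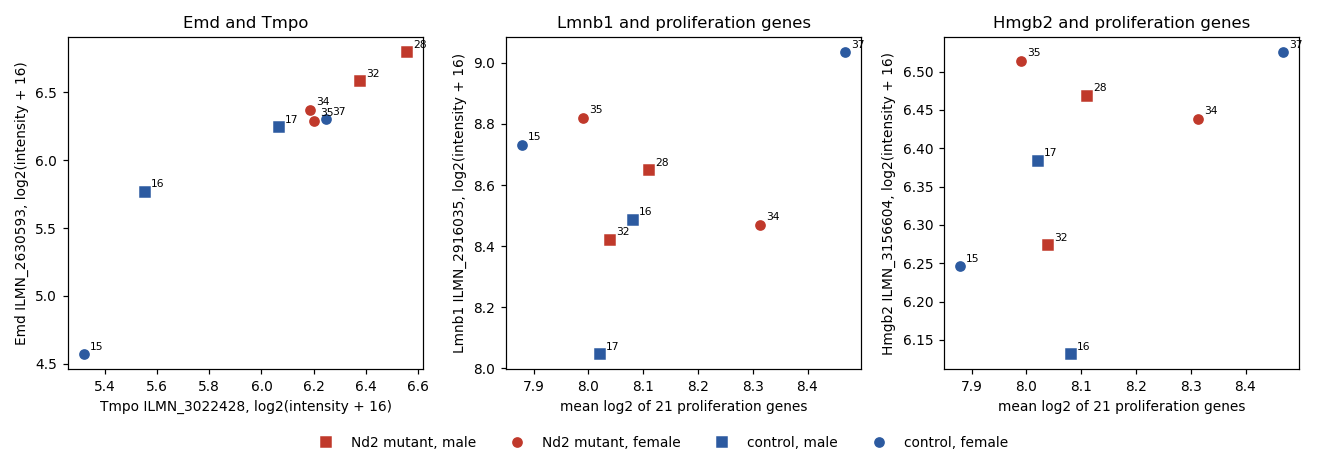
Levels per mouse on the log2(intensity + 16) scale, with mouse numbers beside the points (red, Nd2 mutant; blue, control; squares, males; circles, females), for Emd against Tmpo, and for Lmnb1 and Hmgb2 against the mean of 21 proliferation genes. Emd and Tmpo lie along 1 line (r = 0.940), while Lmnb1 (r = 0.349) and Hmgb2 (r = 0.496) scatter against the proliferation genes.

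Banf1 was measured by 4 probes, and they gave log2 differences of 0.02, -0.02, -0.01 and -0.17. The probe with the highest mean intensity, ILMN_3158909, gave 1124, 1204, 1421 and 1224 in mutants and 1200, 1193, 1262 and 1350 in controls. The controls lay inside the mutant range (adjusted p = 0.983). The probe with the lowest difference, ILMN_2685806, gave 196, 228, 250 and 234 in mutants and 213, 222, 315 and 287 in controls, so that controls 17 and 37 lay above every mutant while the other two did not. Its log2 difference was -0.17 (SE 0.161; adjusted p = 0.763).

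Hmgb2, the HMGB gene linked to dividing cells, was measured at 72.5, 61.3, 70.7 and 75.4 in mutants and 59.9, 54.1, 67.5 and 76.1 in controls. Controls gave both the lowest and the highest value. The log2 difference was 0.10 (SE 0.139, 95% interval -0.21 to 0.41; adjusted p = 0.83; exact permutation p = 0.343). The single probes of Hmgb1 and Hmgb3 were not above background on any of the 8 arrays, with intensities from -1.28 to 6.46 for Hmgb1 and below 0 throughout for Hmgb3, so no fold change can be given for either. A probe that is not above background does not show that the mRNA was absent from these cells.

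**Figure D5:**
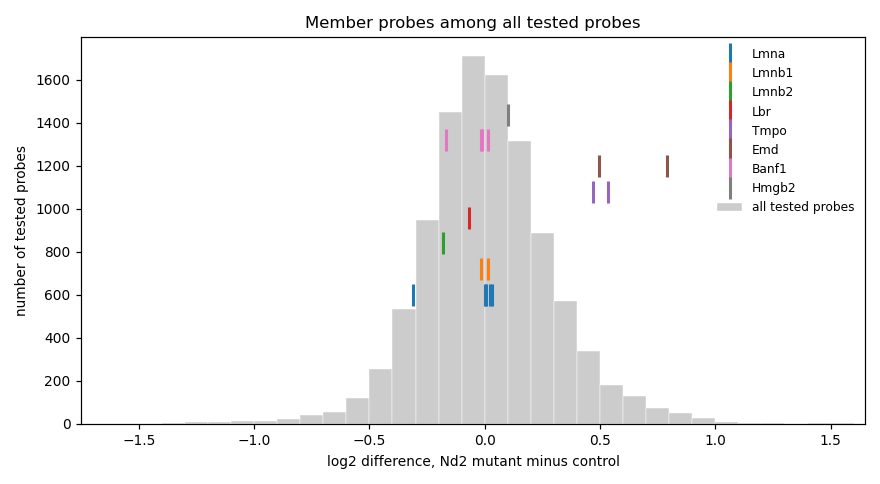
Number of tested probes (vertical axis) in steps of 0.1 of the log2 difference between Nd2-mutant and control fibroblasts (horizontal axis, grey bars, 10414 probes), with the member probes as coloured marks at their own difference (heights of the marks separate the genes and carry no value). Lmna ILMN_1255510 lies at percentile 9.54, the other lamin, Lbr, Banf1 and Hmgb2 probes lie between -0.18 and 0.10, and the 4 Emd and Tmpo probes lie on its right side, from 0.47 to 0.79.

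A strain effect that differed between the sexes was called for none of the members. The interaction of strain and sex passed in 0 of 18 member probes before adjustment, beside 1.77% of all tested probes, and the smallest adjusted p was 0.9999. For Lmnb1 ILMN_2916035 the log2 difference was 0.27 in males and -0.24 in females, with an interaction of 0.51 (SE 0.349) that did not pass. For Emd ILMN_2630593 it was 0.68 in males and 0.89 in females, and for Lmna ILMN_1255510 it was -0.20 and -0.43, so both had the same sign in either sex.

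Proteins that work with the lamins at the nuclear envelope gave 0 calls after adjustment. Of 15 further genes of the inner nuclear membrane and the LINC complex, which couples the lamina to the cytoskeleton, 11 were tested, with 4 higher and 7 lower in mutants and a median log2 difference of -0.07. Sun2, an inner-membrane component of LINC bridges, had an intensity of 318 ± 45.5 in mutants and 577 ± 237 in controls (SD, n = 4 each), a log2 difference of -0.75 (SE 0.256; adjusted p = 0.639). Of the 11 tested genes of this group it was the 1 past the threshold before adjustment, beside 3.13% of all tested probes that passed as lower. Its partner family member Sun1 was at 0.21 (SE 0.203), Lemd2 at -0.42 (SE 0.231) and Nrm at -0.26 (SE 0.162). For prelamin A processing, 5 of 5 genes were tested, with a median of -0.23. Rce1, the protease that trims the farnesylated tail, was 174 ± 8.02 in mutants and 220 ± 38.0 in controls (log2 difference -0.29, SE 0.148, limma adjusted p = 0.639). Its groups did not overlap, which held for 4.37% of all tested probes (exact permutation p = 0.0286, the lowest this test can give). The methyltransferase Icmt was at -0.24 (SE 0.159), the farnesyltransferase subunit Fntb at -0.23 (SE 0.143) and Zmpste24, which makes the final cut of prelamin A, at 0.26 (SE 0.192). Of 27 nuclear pore genes 19 were tested, 10 higher and 9 lower, with a median of 0.01. The pore membrane protein Pom121 had the smallest p among them (log2 difference -0.40, SE 0.167; adjusted p = 0.639), followed on the lower side by Nup93 (-0.31, SE 0.193).

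Genes for chromatin proteins outside the HMGB family were as evenly divided. Of 20 genes for HMG and heterochromatin proteins 15 were tested, 7 higher and 8 lower, with a median of -0.00 and 0 genes past the threshold before adjustment. The nucleosome-binding Hmgn2 was at 0.30 (SE 0.158) and Hmgn5 at -0.31 (SE 0.176). Uhrf1, which helps maintain DNA methylation, was at -0.32 (SE 0.164). Suv39h1, a histone H3 methyltransferase of heterochromatin, was at -0.25 (SE 0.147, limma adjusted p = 0.653). All 4 mutants lay below all 4 controls, beside 4.37% of all tested probes without overlap (exact permutation p = 0.0286, the lowest this test can give).

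Proliferation and senescence genes, against which Lmnb1 and Hmgb2 are usually read, were divided about evenly between higher and lower levels. Of 26 proliferation genes 21 were tested, 11 higher and 10 lower, with a median of 0.01. The replication helicase subunit Mcm7 was at -0.77 (SE 0.322; adjusted p = 0.639), while Mcm3, of the same complex, was at 0.35 (SE 0.234) and the mitotic kinase Cdk1 at 0.39 (SE 0.224). Of 15 genes for senescence arrest and the lysosome 14 were tested, 7 higher and 7 lower, with a median of 0.00. Gdf15, a secreted stress factor, was 26.6 ± 11.3 in mutants and 57.1 ± 25.1 in controls (log2 difference -0.74, SE 0.277; adjusted p = 0.639). The p53 regulator Mdm2 was at -0.39 (SE 0.159) and Trp53 itself at 0.32 (SE 0.218). The cyclin gene Ccnd1 was at -0.42 (SE 0.232) and the inhibitor gene Cdkn1b at 0.47 (SE 0.270). Before adjustment 1 of 21 proliferation genes (Mcm7) and 2 of 14 senescence genes (Gdf15 and Mdm2) passed as lower and 0 as higher. Of all tested probes 3.13% passed as lower and 4.50% as higher. After adjustment 0 genes of either group passed.

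The level of the members was set against the mean of the 21 tested proliferation genes over the 8 mice. Of 8 correlations 0 passed adjustment. For Lmnb1, Pearson's r was 0.349 (exact permutation p = 0.392, adjusted p = 0.551) and Spearman's rho was 0.0952. For Hmgb2, r was 0.496 (exact permutation p = 0.212, adjusted p = 0.543) and rho was 0.429. Leaving out mutant 34 and control 37, whose proliferation level was farthest from the median, turned Lmnb1 to -0.279 and brought Hmgb2 to 0.0962. For Lmnb2, r was -0.278 (adjusted exact permutation p = 0.554) over all mice and -0.971 (adjusted exact permutation p = 0.0111) without the same pair of mice, so this relation depended on which mice were used.

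Other genes were ranked by how closely their level followed a member over the 8 mice, as a description. Lmna ILMN_1255510 was followed most closely by Gpaa1 (r = 0.972), Thap3, Plekhg3, Midn and Fam131a. Lmnb1 ILMN_2916035 was followed by Actl6a (r = 0.896), Mbp, Cenpm, Sh3md4 and Wdr70. Hmgb2 was followed by Reck (r = 0.975), Spnb2, Uhrf2, Srebf1 and Anp32e. These are the highest values among the tested probes of other genes with a symbol, over few mice that share the same arrays.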

How the data were processed

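RNA of skin fibroblasts was hybridised to 8 Illumina MouseRef-8 v2.0 arrays. The authors extracted the data in GenomeStudio (version not given in the sources used here), quantile normalized the intensity of each probe and subtracted the background. The deposited values are linear intensities, each with a deposited detection p-value computed by the authors' software. The tables deposited as normalized and non-normalized are identical, so other background corrections were not run.

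For testing, negative values were raised to 0 and log2(intensity + 16) was used, a scale that understates changes of dim probes. Probes with a detection p-value under 0.01 on all 4 arrays of a strain were tested with limma 3.58.1 (R 4.3.3; lmFit and eBayes, 2-sided). The p-values were adjusted by the Benjamini-Hochberg method across the 10414 probes, and 0.05 was the threshold. Correlations and single probes were tested with exact 2-sided permutation tests. The steps were checked on simulated data. Alternatives were other added values, the linear scale, other detection filters, the methods' t-test on either scale, a variance trend, array weights, sex as a term, cyclic loess, each sex alone and leaving out each mouse.

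The members and gene lists were chosen with earlier results of these data known. In the companion lists the probe with the highest mean stood for a gene, and the 3 genes with the smallest p per direction, or fewer, were named. For the likeness ranking, the 5 probes with the highest r were named. Of 181 listed companion genes, 158 matched the array by symbol, 9 by an older symbol and 14 not at all. The value of 1 marker gene is not reported here.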

Additional observations from a re-analysis of the deposited data

Results flagged for a closer look

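Among 48 groups of 4 mice (1 per strain for each tested probe and each companion list mean, on the log2 scale), 1 held a value far from the others. Mutant mouse 35 had a Lmna ILMN_1254405 intensity of 2093, beside 2732 to 2816 in the other mutants, and its gap was 0.898 of the range of the group, past Dixon's 95% limit for 4 values. Chance would give about 2.4 such groups among 48. Mutant 35 also had the highest summed intensity of macrophage markers, 1977, beside a lowest mutant value of 310. Each macrophage marker on the array was highest in this mouse, among them Cd68 (145), C1qb (212) and Fcer1g (331), while Ptprc was detected on 0 arrays. The part of these markers in the Lmna value was not tested.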

How the results depend on the processing

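Under 22 alternatives, 1 of them chosen after seeing the data (the methods' t-test on the linear scale), the 18 member probes gave 0 values past an adjusted p of 0.05 (smallest adjusted p = 0.308, Lmna ILMN_1255510 without control 17), and 9 probes (both of Emd, 2 of Tmpo, Hmgb2, Lbr, Lmnb2, Lmna ILMN_1255510 and Banf1 ILMN_2685806) had the same sign under every one that could be computed. The Emd probes and Lmnb1 ILMN_2720229 gave no value among probes detected on all 8 arrays. The other 9 probes turned their sign in 47 of 197 values; the cause was not tested. On the linear scale, with limma and with the methods' t-test, the intensity differences were -0.273 for Banf1 ILMN_2745971, -2.84 for Lmna ILMN_2597710 and -5.51 for Lmnb1 ILMN_2916035. With array weights the log2 differences were -0.10 for Banf1 ILMN_2745971, -0.10 for Lmna ILMN_2662387 and -0.027 for Lmnb1 ILMN_2916035, and with cyclic loess -0.0097 for Lmna ILMN_1254405 and -0.0082 for ILMN_2597710. In males alone Banf1 ILMN_2745971 was at -0.035. In females alone Banf1 ILMN_2698392 was at 0.11 and ILMN_3158909 at 0.051, Lmna ILMN_2662387 at -0.20, ILMN_1254405 at -0.11 and ILMN_2597710 at -0.11, and Lmnb1 ILMN_2916035 at -0.24. The mean of the Lmnb1 probes was at -0.00056. Without each mouse in turn, the differences ran from -0.082 to 0.067 for Banf1 ILMN_2698392, -0.13 to 0.092 for Banf1 ILMN_2745971, -0.078 to 0.033 for Banf1 ILMN_3158909, -0.036 to 0.11 for Lmna ILMN_1254405, -0.091 to 0.12 for Lmna ILMN_2597710, -0.047 to 0.18 for Lmna ILMN_2662387, -0.064 to 0.096 for Lmna ILMN_3121891, -0.14 to 0.095 for Lmnb1 ILMN_2720229 and -0.16 to 0.17 for Lmnb1 ILMN_2916035.

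The count of 2 member probes past the threshold before adjustment was 1 with 1 added before log2, 1 on the linear scale and 1 with probes detected on all 8 arrays. It was 0 with the methods' t-test on either scale, with array weights and in females alone, and 0 (without mutant 28, mutant 32 or control 16) to 4 (without control 17 or control 37) when mice were left out. The count for the interaction ran from 0 to 2 (without control 15) and that for sex from 0 (without mutant 35, control 15 or control 16) to 3 (without control 37), and the count for sex was 0 on the linear scale. Over all probes, 3 genes passed adjustment with no filter on detection and 1 with the methods' t-test on either scale, and the 725 genes before adjustment became 1504 with no filter, 322 in females alone and 406 (without control 16) to 1304 (without control 17) when mice were left out. Without the 2 mice farthest from the median, correlations with the proliferation mean turned to -0.437 for Banf1, -0.301 for Lmna and -0.279 for Lmnb1, and Lmnb2 reached -0.971. Not run were normexp on raw intensities, which the identical tables do not allow, and a block for chips, which no header names. No paired analysis was possible because no mouse number occurs in both strains.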
